A study of Mus musculus with 14 samples.

Results

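A set of 10 genes, grouped as effectors of the tumour suppressor p53 in cell death and growth control, was followed: Perp, Ei24, Aen, Apaf1, Phlda3, Phlda1, Zmat3, Trp53inp1, Trp53inp2 and Cyfip2. They were taken by symbol, without regard to any measured value, and all 10 were found among the 20207 genes that the RNA files list. RNA was sequenced from the 3' ends of poly(A) transcripts in 10 libraries of mouse embryo fibroblasts (MEFs) of strain 129/Sv. The groups were p53-null cells (p53-/-) treated with doxorubicin, with 2 libraries, p53-null cells left untreated, with 2 libraries, wild-type cells treated with doxorubicin, with 3 libraries, and wild-type cells left untreated, with 3 libraries. Treatment was 0.2 µg/ml doxorubicin for 6 h in all treated cultures, and all cells grew in the same medium with fetal calf serum. Doxorubicin is a topoisomerase II poison that breaks DNA. The labels number the libraries without saying that each came from its own culture or embryo, so each p-value reflects how far libraries of a group lay apart, which may be technical. They do not say either which part of the p53 gene is missing.

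After DNA damage, p53 is stabilised and binds paired decamer motifs near its target genes, whose products stop the cell cycle, repair DNA or kill the cell. Death by the mitochondrial route runs through BCL-2 family proteins, release of cytochrome c and assembly of the apoptosome, in which APAF1 activates caspase-9. Other targets act elsewhere: at membranes, on the survival kinase AKT, on RNA, in autophagy or on the actin cytoskeleton, and the 10 genes are spread over these roles. MEFs exposed to DNA damage are known to arrest rather than die unless they carry an oncogene.

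Levels are given as reads scaled to a common library size (CPM), with the standard deviation (SD) over n libraries, and changes as differences in log2 of CPM plus 0.5, with the standard error (SE), always doxorubicin minus untreated or p53-null minus wild type. This scale understates changes of genes near or under 0.5 CPM. A gene is said to have risen or fallen only where limma's adjusted p over all 11177 genes tested was under 0.05. Levels are not compared between genes. p53-null libraries held 18099063 to 25970076 reads and wild-type libraries 9766294 to 11770327, so depth followed genotype without overlap. Reads of Trp53, the gene of p53, stood at 29.5 and 44.1 CPM in treated and 69.6 and 74.2 CPM in untreated p53-null cells, against 23.9 to 43.4 CPM in treated and 20.1 to 25.2 CPM in untreated wild-type cells. Such 3' reads cannot show a deletion that lies in another part of Trp53. Of 12 fibroblast markers all 12 were tested, with summed levels of 4906 to 6212 CPM in p53-null and 6795 CPM or more in wild-type libraries. Summed macrophage markers ran from 38.9 to 50.9 CPM in p53-null and from 28.0 to 292.3 CPM in wild-type libraries, and their part in the results was not tested. The p53-null libraries numbered 2 differed from each other in sex-linked transcripts: over 4 Y-linked genes, the treated one held 15 reads and the untreated one 216, and Xist had 399 reads in the treated and 15 in the untreated one. The counts of effectors are therefore also given without both of these libraries. Over the same Y-linked genes, p53-null library 1 held 136 reads treated and 207 untreated. Wild-type libraries 1, 2 and 3 held 147, 7 and 9 treated and 166, 0 and 2 untreated. Xist had 110, 155 and 263 reads in treated and 82, 86 and 161 in untreated wild-type libraries 1, 2 and 3. In p53-null library 1 it had 29 treated and 22 untreated. Wild-type library 1 thus held Y-linked and Xist reads together, and these reads do not assign it to 1 sex. Sex-linked reads differed among wild-type libraries and between untreated genotypes as well, and the part of sex in the results was not tested.

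Among the death effectors, PERP is a membrane protein that p53 induces in dying mouse cells and that also belongs to desmosomes in epithelia. EI24 is a membrane protein of the endoplasmic reticulum linked to apoptosis and autophagy. AEN is a nuclease that enhances apoptosis, and APAF1 is the scaffold of the apoptosome. RefSeq promoter windows of 300 bases (build GRCm38.p6, 250 bases before and 50 after the annotated start) were at hand for 6 of the 10 genes, Phlda3, Trp53inp2, Ei24, Aen, Apaf1 and Cyfip2. The p53 decamer consensus, which reads the same on both strands, matched in the windows of Ei24 and Aen and had no match in those of the other 4 genes, and 8.36% of all 32841 windows hold a match. Both windows are shown here because they are the ones among the 10 genes with such letters, with the matching decamer in capitals, 5' to 3' along the gene. In Ei24 the decamer starts 10 bases before the annotated start, in the window chr9:36797285-36797584 on the minus strand. In Aen it starts 10 bases after the first annotated start, in the window chr7:78895677-78895976 on the plus strand. A match describes the letters only and is no evidence of binding.
Ei24: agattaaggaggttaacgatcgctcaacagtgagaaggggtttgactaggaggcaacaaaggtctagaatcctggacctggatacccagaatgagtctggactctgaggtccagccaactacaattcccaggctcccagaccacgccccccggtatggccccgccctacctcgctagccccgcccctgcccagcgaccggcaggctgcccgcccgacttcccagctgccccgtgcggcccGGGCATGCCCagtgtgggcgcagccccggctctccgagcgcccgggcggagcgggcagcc
Aen: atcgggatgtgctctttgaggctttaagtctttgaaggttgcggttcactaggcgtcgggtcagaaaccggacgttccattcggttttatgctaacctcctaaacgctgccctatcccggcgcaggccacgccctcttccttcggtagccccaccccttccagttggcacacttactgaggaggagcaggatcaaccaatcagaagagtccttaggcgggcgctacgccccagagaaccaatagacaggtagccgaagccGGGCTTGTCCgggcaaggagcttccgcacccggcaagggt

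Doxorubicin raised 5 of the 10 genes in wild-type cells, namely Perp, Ei24, Zmat3, Trp53inp1 and Cyfip2, and lowered none. Of all genes tested, 8.02% rose and 4.56% fell, 12.6% together. For 9 of the 10 genes, all but Phlda1, every treated library lay above every untreated one, which was so for 17% of all genes, and for none of the 10 was the order the reverse, as it was for 12% of all genes. The median change of the 10 was 1.14 on the log2 scale, against 0.05 over all genes. Perp and Trp53inp1 reached 1 CPM in treated wild-type cells alone and entered the test through that group, so they had to be higher there; of the other 8 genes, 3 rose.

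Perp was almost silent without damage. It stood at 1.96, 2.33 and 3.09 CPM in the 3 treated wild-type libraries, from 21, 25 and 30 reads, against 0.119, 0.270 and 0.112 CPM in the untreated ones, from 1, 3 and 1 reads. All treated libraries were high and all untreated ones near 0, and the groups did not overlap. The log2 change of Perp was 2.14 (SE 0.23, adjusted p = 0.000308), and the ratio of summed reads scaled for depth was 13.9, with an exact 95% interval of 5.69 to 43.9 that covers counting error only.

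Ei24 stood at 10.6, 18.0 and 17.3 CPM in treated wild-type libraries, against 2.14, 2.25 and 3.15 CPM in untreated ones. The lowest treated library was still more than 3 times the highest untreated one. Its log2 change of 2.37 (SE 0.33, adjusted p = 0.00152) was a ratio of group means of 6.08. Both Perp and Ei24 passed the test under every alternative in which they were tested.

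Aen and Apaf1 were expressed in untreated wild-type cells and did not pass the test. Aen had 444.1, 311.3 and 575.7 CPM in treated and 257.8, 276.7 and 308.7 CPM in untreated libraries, so treated library 2 lay only just above the highest untreated one. The log2 change of Aen was 0.62 (SE 0.25, adjusted p = 0.15). Apaf1 had 17.7, 18.3 and 12.1 CPM in treated and 4.88, 11.3 and 8.54 CPM in untreated libraries, with a log2 change of 0.97 (SE 0.39, adjusted p = 0.136). The groups did not overlap for either gene, but their ranges came close, at 311.3 against 308.7 CPM for Aen and 12.1 against 11.3 CPM for Apaf1.

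PHLDA3 is a pleckstrin-homology protein that competes with AKT for membrane lipids and so holds back this survival kinase. Phlda3 stood at 817.5, 920.1 and 748.0 CPM in treated wild-type libraries, against 555.0, 401.9 and 566.9 CPM in untreated ones. The groups were apart, yet the log2 change of 0.72 (SE 0.21, adjusted p = 0.0527) missed the threshold, which it passed with scaling by library size only or a filter of 3 CPM. Its relative PHLDA1, described in mouse as a protein of T-cell apoptosis, varied widely between wild-type libraries. Phlda1 had 11.3, 24.8 and 143.5 CPM in treated libraries 1, 2 and 3, against 3.69, 5.75 and 14.1 CPM in untreated libraries 1, 2 and 3. The treated group overlapped the untreated one, since library 1 treated was lower than library 3 untreated, and the log2 change was 2.27 (SE 0.78, adjusted p = 0.0873). Without treated library 1 Phlda1 passed the test.

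Wild-type libraries of the same number deviated together from their group means (correlations of 0.581, 0.342 and 0.611 over genes), and with the number as a block in wild type both Phlda genes passed. The adjusted p was 0.00136 for Phlda1, with the SE down to 0.31, and 0.0399 for Phlda3. Within pairs Phlda1 was 3.06, 4.32 and 10.2 times higher in treated libraries, and Phlda3 was 1.47, 2.29 and 1.32 times higher. In this fit 7 of the 10 genes rose, beside 21.8% of all genes called in either direction. Ratios within pairs were above 1 in all 3 wild-type pairs for all 10 genes, Perp and Trp53inp1 included, which the filter favours there, and for 30.9% of all genes tested. They ran from 1.13 for Aen in pair 2 to 27.5 for Perp in pair 3.

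ZMAT3 is a zinc-finger protein that binds RNA and changes the stability and splicing of transcripts. Zmat3 stood at 13.8, 20.6 and 13.2 CPM in treated wild-type libraries, against 4.88, 9.52 and 5.17 CPM in untreated ones. Library 2 was the highest in both groups, and the groups did not overlap. The log2 change was 1.25 (SE 0.32, adjusted p = 0.0291).

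TRP53INP1 is a nuclear partner of p53 that also binds the Atg8 proteins of autophagosomes. Trp53inp1 had 6.16, 6.98 and 6.69 CPM in treated wild-type libraries, from 66, 75 and 65 reads, against 0.238, 0.629 and 0.787 CPM in untreated ones, from 2, 7 and 7 reads. The treated libraries lay within a narrow band, with an SD of 0.411 CPM around 6.61 CPM, and far above the untreated ones. Its log2 change of 2.79 (SE 0.26, adjusted p = 0.000114) had the largest size of the 10 on this scale. The ratio of summed reads was 11.7 (exact 95% interval 7.06 to 20.9), against 13.9 (5.69 to 43.9) for Perp, so the order depends on the measure.

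TRP53INP2, the other member of this family, acts in autophagy, where it also binds Atg8 proteins. Trp53inp2 had 4.48, 7.16 and 5.04 CPM in treated and 3.45, 3.68 and 3.60 CPM in untreated wild-type libraries. The groups were apart, but the log2 change was 0.55 (SE 0.26, adjusted p = 0.201) and did not pass. The paired fit left it there, at an adjusted p of 0.122.

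CYFIP2 is a subunit of the WAVE complex, which drives branched actin, and was described in human cells as a p53-inducible protein. Cyfip2 stood at 3.74, 5.02 and 6.89 CPM in treated wild-type libraries, against 2.62, 1.89 and 2.25 CPM in untreated ones. All treated libraries were above all untreated ones, and the log2 change was 1.03 (SE 0.28, adjusted p = 0.0403). Zmat3 and Cyfip2 were the weaker calls of the 5: without treated wild-type library 2, untreated wild-type library 3, either untreated p53-null library, or both p53-null libraries numbered 2, they missed the threshold together and 3 of the 10 genes rose. Both also missed it when only wild-type libraries were fitted, and Cyfip2 did with limma-voom and with no filter on low levels, with adjusted p up to 0.112 for Zmat3 and 0.138 for Cyfip2 over all alternatives. Zmat3 lost its call as well without wild-type library 1 of either treatment, and Cyfip2 without untreated library 2 or treated library 3 of wild type or either treated p53-null library.

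**Figure D1:**
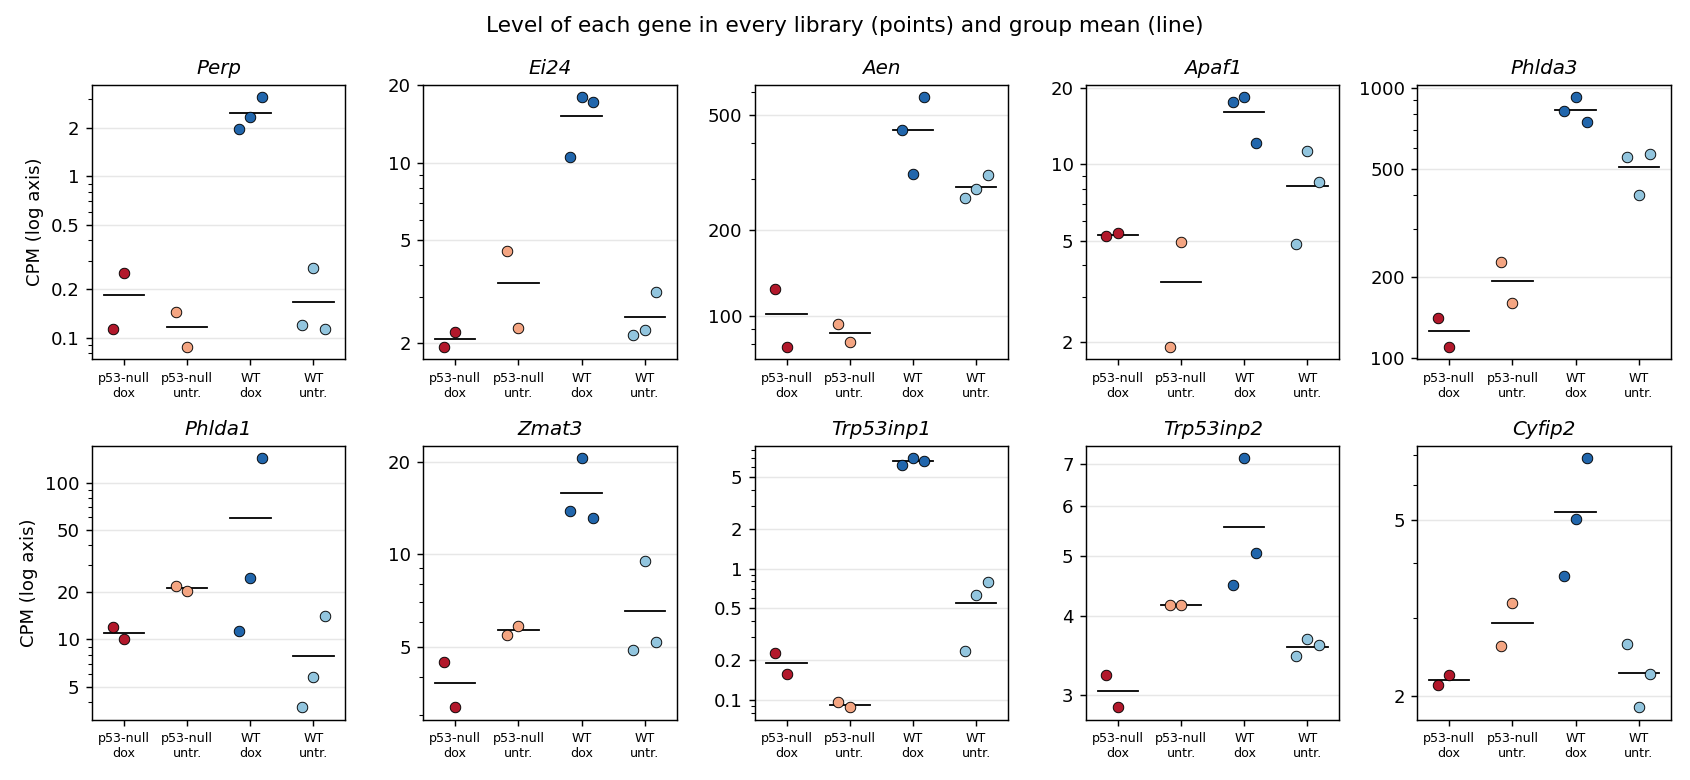
Level of each gene in CPM on a log axis in every library, with p53-null treated, p53-null untreated, wild-type treated and wild-type untreated groups from left to right and a line at each group mean. Treated wild-type libraries stand above all others for Perp, Ei24, Aen, Apaf1, Phlda3, Zmat3, Trp53inp1, Trp53inp2 and Cyfip2, while Phlda1 spreads from 11.3 to 143.5 CPM within that group.

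Without p53, doxorubicin moved none of the 10 genes past the threshold, and no other gene either (0% of genes tested, limma-trend). Limma-voom also called 0 genes, and 1256 genes had an unadjusted p under 0.05, with a smallest adjusted p of 0.354. Of the 10 genes, Phlda3 alone had an unadjusted p under 0.05 (0.0411). The median change of the 10 was -0.38 on the log2 scale, against -0.07 over all genes.

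Perp remained near 0, at 0.114 and 0.252 CPM in treated and 0.144 and 0.0879 CPM in untreated p53-null libraries. That is 11 reads in treated and 5 in untreated libraries, a depth-scaled ratio of 1.65 with an exact 95% interval of 0.528 to 6.05. Trp53inp1 had 0.227 and 0.157 CPM in treated and 0.0960 and 0.0879 CPM in untreated libraries, or 11 against 4 reads, a ratio of 2.06 (0.611 to 8.87). At these depths neither gene showed a difference beyond counting error.

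Ei24 had 1.93 and 2.20 CPM in treated p53-null libraries, against 4.56 and 2.28 CPM in untreated ones, with library 1 untreated standing high. Its log2 change was -0.55 (SE 0.40, adjusted p = 0.629). Aen had 124.8 and 78.5 CPM in treated and 94.1 and 81.4 CPM in untreated libraries, and the groups overlapped. For Apaf1 the values were 5.23 and 5.35 CPM in treated and 1.92 and 4.96 CPM in untreated libraries, a log2 change of 0.67 (SE 0.47, adjusted p = 0.615). The untreated libraries of Apaf1 lay further apart from each other than library 2 lay from the treated ones.

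Phlda3 had 141.3 and 110.4 CPM in treated p53-null libraries, against 226.4 and 160.2 CPM in untreated ones. Both treated libraries were the lower ones, and the log2 change of -0.61 (SE 0.26) had an adjusted p of 0.429. Phlda1 had 12.0 and 10.0 CPM in treated and 22.0 and 20.4 CPM in untreated libraries, with a log2 change of -0.92 (SE 0.95, adjusted p = 0.741). Replicates within each p53-null group were close for Phlda1, unlike the wild-type ones. Its SE comes from all groups together and so holds the wide wild-type spread.

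Zmat3 had 4.47 and 3.18 CPM in treated and 5.47 and 5.84 CPM in untreated p53-null libraries. Trp53inp2 had 3.22 and 2.86 CPM in treated and 4.18 and 4.17 CPM in untreated ones. Cyfip2 had 2.12 and 2.23 CPM in treated and 2.59 and 3.25 CPM in untreated ones. In all, 6 genes (Ei24, Phlda3, Phlda1, Zmat3, Trp53inp2 and Cyfip2) had both treated libraries below both untreated ones, an order that 28.4% of all genes also showed, and none of them passed the test. Trp53inp1 and Apaf1 had the reverse order, as did 25.4% of all genes.

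**Figure D2:**
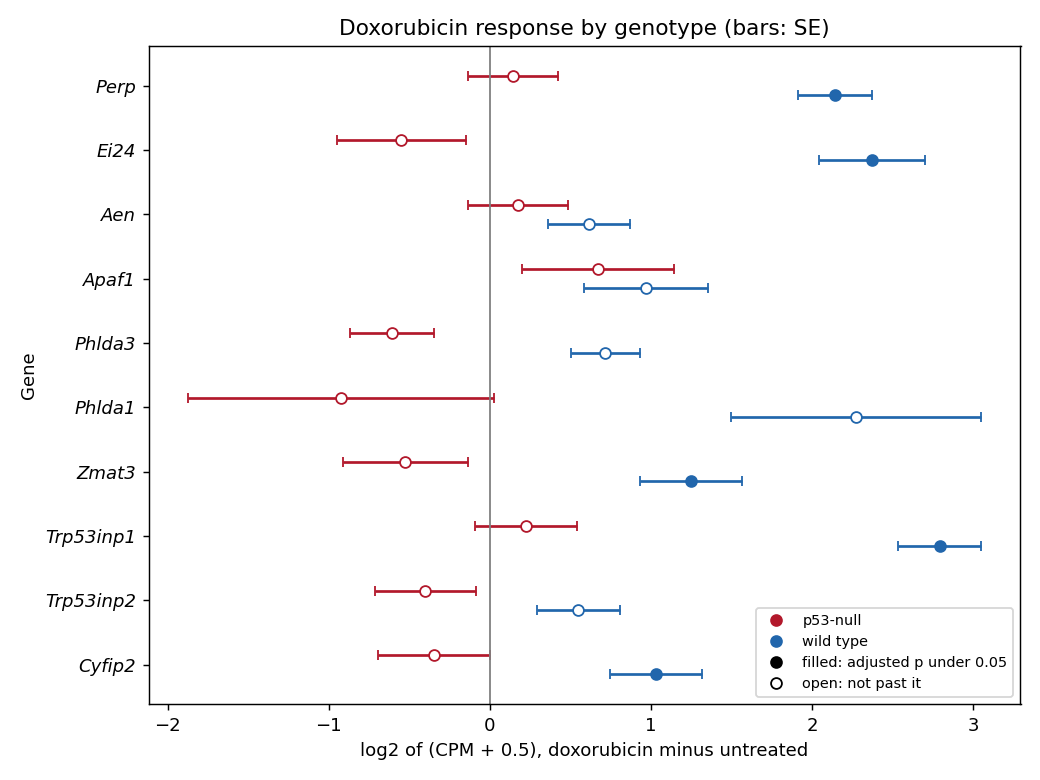
Difference in log2 of CPM plus 0.5, doxorubicin minus untreated, for each gene in p53-null cells (upper point of each pair) and wild-type cells (lower point), with bars of 1 SE and filled points where the adjusted p is under 0.05. The 5 filled points are all wild type, from 1.03 for Cyfip2 to 2.79 for Trp53inp1, and p53-null points lie between -0.92 and 0.67.

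Tested directly, the response in p53-null cells was lower than that in wild-type cells for 3 of the 10 genes, Ei24, Perp and Trp53inp1. Over all genes 1.89% had a lower and 0.447% a higher response in p53-null cells, 2.34% together. Ei24 differed by -2.92 on the log2 scale (SE 0.52, adjusted p = 0.0217), from changes of -0.55 in p53-null and 2.37 in wild-type cells. Trp53inp1 differed by -2.57 (SE 0.41, adjusted p = 0.0117), from 0.22 in p53-null and 2.79 in wild-type cells. Perp differed by -2.0 (SE 0.36, adjusted p = 0.0226), from 0.14 in p53-null and 2.14 in wild-type cells. Perp and Trp53inp1 entered the test through treated wild type alone, which favours this direction; of the other 8 genes, 1 passed, Ei24.

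Phlda1, Phlda3 and Zmat3 had differences of -3.20 (SE 1.22, adjusted p = 0.181), -1.32 (SE 0.34, adjusted p = 0.0695) and -1.78 (SE 0.50, adjusted p = 0.0913) and did not pass, although Phlda3 did with scaling by library size only or a filter of 3 CPM. With the wild-type numbers as a block they did, at adjusted p of 0.0091, 0.0447 and 0.0234, which makes 6 of the 10 genes, beside 7.77% of all genes called in either direction. Differences of the remaining genes were -1.37 (SE 0.45) for Cyfip2, -0.95 (SE 0.41) for Trp53inp2, -0.44 (SE 0.40) for Aen and -0.30 (SE 0.61) for Apaf1, and none passed either fit. For Aen and Apaf1 the responses of the genotypes were thus not told apart. The 3 calls rest on few p53-null libraries. Most or all were lost without both libraries numbered 2 or without any 1 p53-null library. Such fits leave 1 library in a group, and calls over all genes were fewer there too. Over all alternatives but the values as deposited, the differences ran from -3.4 to -2.49 for Ei24, -2.88 to -2.18 for Trp53inp1 and -3.01 to -1.48 for Perp. Perp and Trp53inp1 also missed the threshold with 0.1 CPM added in place of 0.5, with limma-voom and with the values as deposited. Leaving out untreated wild-type library 3 ended the call for Perp, and leaving out untreated wild-type library 2 ended that for Ei24.

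**Figure D3:**
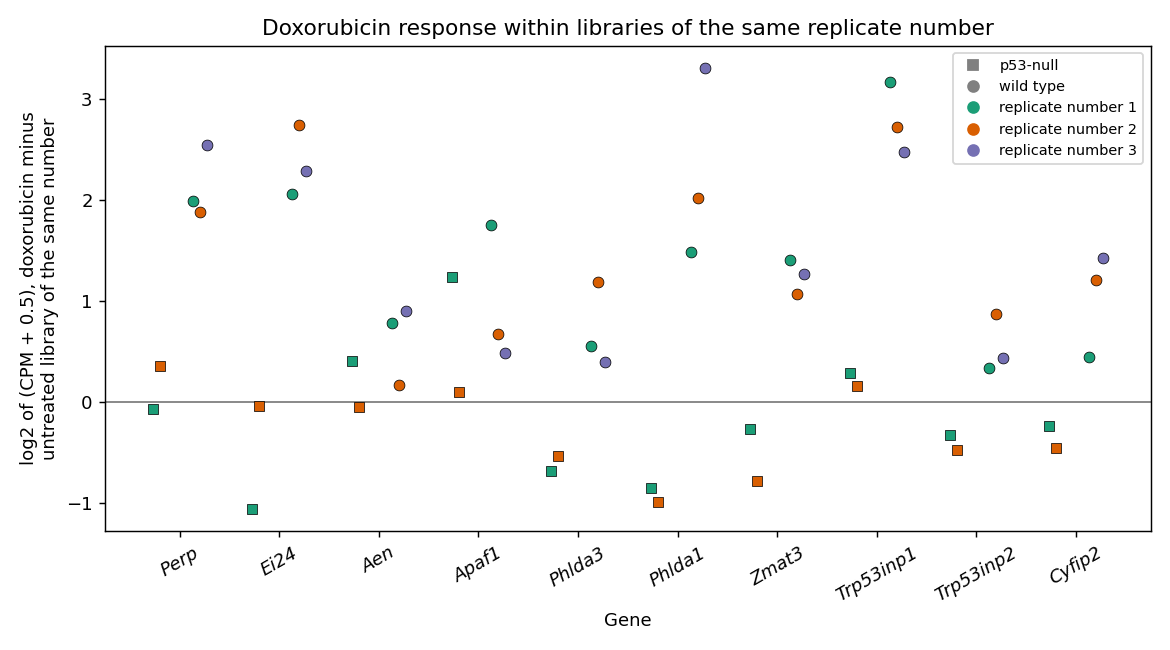
Difference in log2 of CPM plus 0.5 between the treated and the untreated library of the same number, with squares for p53-null (left) and circles for wild-type libraries (right) and a colour for each number. All 30 wild-type points lie above 0, and 14 of the 20 p53-null points lie below it, where the number only names a library and the libraries numbered 2 differ in Y-linked reads.

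In untreated cells, 2 of the 10 genes were lower without p53, Phlda3 and Aen, and none was higher. Over all genes 12.8% were lower and 20.4% higher in untreated p53-null cells, 33.1% together, so a count of 2 among 10 stands near the share of all genes. Phlda3 averaged 193.3 CPM ± 46.8 (SD, n = 2) in untreated p53-null cells and 507.9 CPM ± 92 (SD, n = 3) in untreated wild-type cells, with a log2 difference of -1.40 (SE 0.24, adjusted p = 0.00435). Aen averaged 87.8 CPM ± 9.01 (SD, n = 2) in p53-null and 281.1 CPM ± 25.7 (SD, n = 3) in wild-type cells, with a log2 difference of -1.67 (SE 0.28, adjusted p = 0.00437). Neither gene overlapped between the genotypes. Phlda3, Aen and Trp53inp1 had every p53-null library below every wild-type one, as did 28.8% of all genes, and Phlda1 and Trp53inp2 had the reverse order, as did 36.1%. Both calls were lost without untreated p53-null library 2, and without both libraries numbered 2. Most calls over all genes were lost there too. Over all alternatives but the values as deposited, the log2 differences ran from -1.64 to -0.999 for Phlda3 and from -1.77 to -1.28 for Aen. Depth went with genotype here. In a fit with p53-null reads thinned to wild-type depth, chosen after seeing the data, the log2 difference was -1.39 for Phlda3 (adjusted p = 0.00478) and -1.70 for Aen (adjusted p = 0.00458).

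Another pair of genes came close to the threshold. Trp53inp1 had 4 reads over the untreated p53-null libraries and 16 over the untreated wild-type ones, a depth-scaled ratio of 0.163 (exact 95% interval 0.0397 to 0.505), and its log2 difference of -0.79 (SE 0.29) had an adjusted p of 0.0567. Apaf1 averaged 3.44 CPM ± 2.15 (SD, n = 2) in p53-null and 8.25 CPM ± 3.23 (SD, n = 3) in wild-type cells, and the groups overlapped (adjusted p = 0.0559). Without untreated wild-type library 1, Trp53inp1 and Apaf1 passed as well, which made 4 of the 10 genes, beside 35.9% of all genes. Trp53inp1 also passed with 0.1 CPM added, limma-voom or the values as deposited, and Apaf1 with median-of-ratios scaling, the values as deposited or the replicate block. The other 6 genes had log2 differences from -0.13 for Zmat3 to 1.58 for Phlda1 (SE 0.87, adjusted p = 0.178). Phlda1 was the highest of these, at 21.2 CPM ± 1.17 (SD, n = 2) in p53-null and 7.83 CPM ± 5.48 (SD, n = 3) in wild-type cells, and no untreated wild-type library reached a p53-null one. It passed as higher with the replicate block (adjusted p = 0.00732), with only the libraries compared and without treated wild-type library 3. The median of the 10 was -0.12, against 0.09 over all genes, and its sign turned to 0.10 with scaling by library size only, which moved the median of all genes to 0.43.

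In doxorubicin-treated cells 7 of the 10 genes were lower without p53: Perp, Ei24, Aen, Apaf1, Phlda3, Zmat3 and Trp53inp1. Over all genes 6.83% were lower and 5.25% higher in treated p53-null cells, 12.1% together. For 9 of the 10 genes every p53-null library lay below every wild-type one, as for 20% of all genes, and Phlda1 was the exception. None had the reverse order, which 21.9% of all genes had. Perp and Trp53inp1 entered the test through treated wild type alone and so had to be lower in treated p53-null cells; of the other 8 genes, 5 were lower. The median difference of the 10 was -2.01 on the log2 scale, against 0.03 over all genes. These comparisons share their libraries with those above and are not separate evidence.

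The steepest difference was that of Trp53inp1, at 0.192 CPM ± 0.0496 (SD, n = 2) in treated p53-null and 6.61 CPM ± 0.411 (SD, n = 3) in treated wild-type cells. Its summed reads were 11 in p53-null and 206 in wild-type libraries, a depth-scaled ratio of 0.0286 (exact 95% interval 0.0141 to 0.0523; log2 difference -3.36, SE 0.29, adjusted p = 4.7e-05). Perp averaged 0.183 CPM ± 0.0975 (SD, n = 2) in p53-null and 2.46 CPM ± 0.574 (SD, n = 3) in wild-type cells, a depth-scaled ratio of 0.0776 (0.0372 to 0.147; adjusted p = 0.000496). Ei24 averaged 2.07 CPM ± 0.190 (SD, n = 2) in p53-null and 15.3 CPM ± 4.09 (SD, n = 3) in wild-type cells, with a log2 difference of -2.58 (SE 0.37, adjusted p = 0.00132). These 3 are also the genes whose response differed between the genotypes.

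Phlda3, the AKT antagonist, averaged 125.9 CPM ± 21.8 (SD, n = 2) in treated p53-null and 828.5 CPM ± 86.6 (SD, n = 3) in treated wild-type cells, with a log2 difference of -2.72 (SE 0.24, adjusted p = 5.3e-05). The wild-type mean was 6.58 times that in p53-null cells, against 2.63 times in untreated cells. Aen, the nuclease gene, averaged 101.6 CPM ± 32.7 (SD, n = 2) in p53-null and 443.7 CPM ± 132.2 (SD, n = 3) in wild-type cells (log2 difference -2.11, SE 0.28, adjusted p = 0.000958). Its difference in untreated cells was -1.67. Whether the difference grew with treatment is what the comparison of responses asks, where Phlda3 missed the threshold in the fit without a block and Aen missed it with and without the block.

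Zmat3 averaged 3.83 CPM ± 0.916 (SD, n = 2) in treated p53-null and 15.9 CPM ± 4.09 (SD, n = 3) in treated wild-type cells (log2 difference -1.91, SE 0.35, adjusted p = 0.00665). Apaf1 averaged 5.29 CPM ± 0.0828 (SD, n = 2) in p53-null and 16.0 CPM ± 3.39 (SD, n = 3) in wild-type cells, with a log2 difference of -1.49 (SE 0.43) that only just passed (adjusted p = 0.0496). That call for Apaf1 was lost under 15 of 23 alternatives, among them the omission of each treated library of either genotype, of untreated wild-type library 2 or 3, or of untreated p53-null library 2. Cyfip2 averaged 2.18 CPM ± 0.0784 (SD, n = 2) in p53-null and 5.22 CPM ± 1.59 (SD, n = 3) in wild-type cells and missed the threshold (log2 difference -1.06, SE 0.32, adjusted p = 0.0561), which it passed with limma-voom or without treated wild-type library 1. Trp53inp2, at 3.04 CPM ± 0.254 (SD, n = 2) in p53-null and 5.56 CPM ± 1.41 (SD, n = 3) in wild-type cells, did not pass either (adjusted p = 0.118), nor did Phlda1, at 11.0 CPM ± 1.40 (SD, n = 2) in p53-null and 59.9 CPM ± 72.8 (SD, n = 3) in wild-type cells (adjusted p = 0.254). Without both p53-null libraries numbered 2, the calls for Zmat3, Aen and Apaf1 were lost, as were most calls over all genes. Zmat3 was also lost without treated p53-null library 2 alone.

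**Figure D4:**
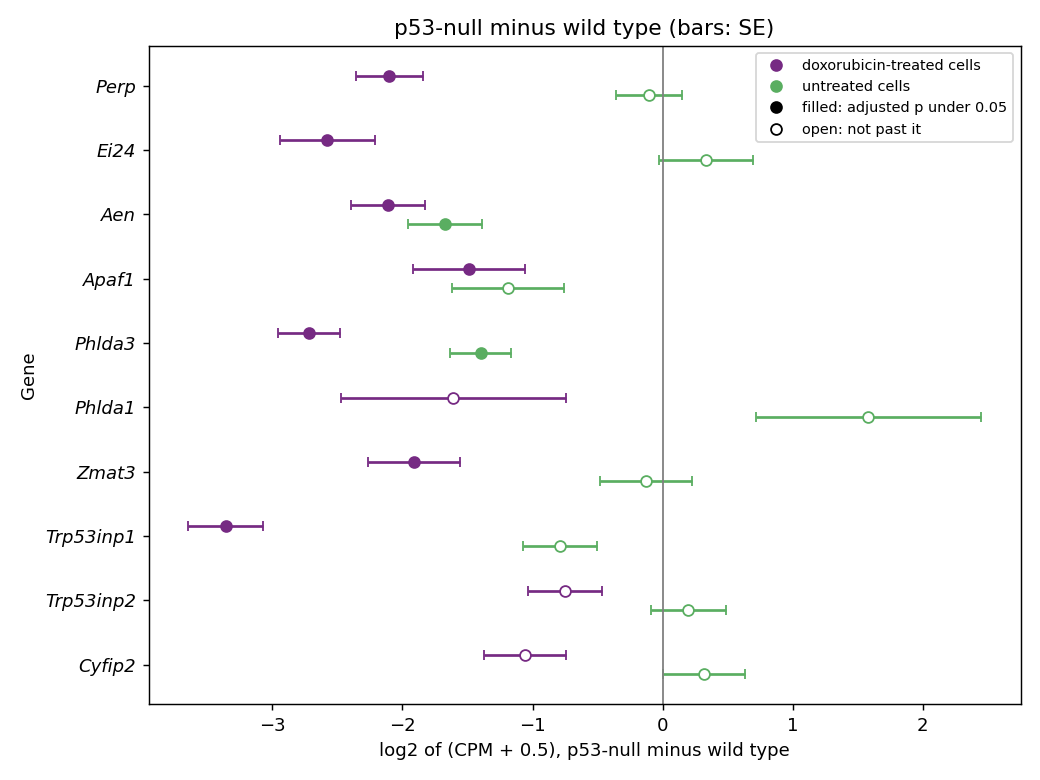
Difference in log2 of CPM plus 0.5, p53-null minus wild type, in doxorubicin-treated cells (upper point of each pair) and in untreated cells (lower point), with bars of 1 SE and filled points where the adjusted p is under 0.05. Treated cells have 7 filled points, from -3.36 for Trp53inp1 to -1.49 for Apaf1, and untreated cells have 2, Aen at -1.67 and Phlda3 at -1.40.

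Genes of the pathways around these effectors were counted next to them. Among 18 tested genes of p53-linked growth arrest and feedback, 13 rose with doxorubicin in wild-type cells and none fell, with a median of 2.20. Over all genes tested 8.02% rose and 4.56% fell there. Those of smallest p were Ptprv, which encodes a receptor-type phosphatase (4.69), Cdkn1a, which encodes the cell-cycle inhibitor p21 (2.73), Ccng1, which encodes cyclin G1 (3.17), and Gdf15, which encodes a secreted stress cytokine (3.42). Of 16 other p53-linked apoptosis genes, 8 rose and none fell, with a median of 1.14, but 3 of the 16 (Pmaip1, Fas and Lrdd) entered the test through treated wild type alone, and of the other 13, 5 rose. Pmaip1 and Bbc3, which encode the BH3-only killers NOXA and PUMA, changed by 2.90 and 2.45, Lrdd, which encodes the PIDDosome protein PIDD, by 2.23, and the death receptor gene Fas by 1.95. In treated cells without p53, 12 of the 18 arrest and feedback genes and 7 of the 16 apoptosis genes (4 of the other 13) were lower than in wild type and none was higher. Of all genes, 6.83% were lower in that comparison. The response itself was lower in p53-null cells for 9 of the 18 and 3 of the 16 (1 of the other 13), beside 1.89% of all genes. Without both p53-null libraries numbered 2 the calls of a lower response were lost, as was every call of a differing response over all genes. Not all calls between treated genotypes were lost there.

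Few partners of single effectors passed the test with doxorubicin in wild-type cells, where 8.02% of all genes rose and 4.56% fell. Of 8 tested apoptosome partners of APAF1, none rose with doxorubicin in wild-type cells and 1 fell, the chaperone gene Hspa8 (-1.44, SE 0.19, adjusted p = 0.00107). Casp9, the caspase that APAF1 activates, averaged 4.16 CPM ± 3.18 in treated and 2.86 CPM ± 1.15 in untreated wild-type cells (SD, n = 3 each). None of 8 WAVE complex and partner genes, 7 genes of the Atg8 family and its partners or 7 genes of the AKT axis passed in wild type in limma-trend or limma-voom, and at an unadjusted p under 0.05 there were 0, 0 and, for the AKT axis, 1 higher and 1 lower. Of 6 tested desmosome genes, Jup (0.81, SE 0.18, adjusted p = 0.0146) and Evpl (1.09, SE 0.28, adjusted p = 0.0298) rose, Evpl having entered the test through treated wild type alone, and Dsp, the gene of desmoplakin, had 1 read in treated and 1 in untreated wild-type libraries. Among 7 close relatives of the 10 genes, 1 fell, Zmat5 (-0.75, SE 0.21, adjusted p = 0.0439). Phlda2 was not among those tested, with 2 reads over the treated and 1 over the untreated wild-type libraries.

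WAVE complex genes and Fmr1 were counted together as partners of Cyfip2. Of these 8, 6 were higher in untreated p53-null cells and none lower, with a median of 1.80, beside 20.4% of all genes higher. WAVE subunits made up 5 of 7 tested. The count of 6 held under the 3 other scalings tried. Without both p53-null libraries numbered 2 these calls were lost, as were most calls over all genes, and the median of the 8 was 1.97. Fmr1, which encodes the CYFIP-binding RNA-binding protein FMRP, averaged 9.30 CPM ± 0.356 (SD, n = 2) in p53-null and 1.14 CPM ± 0.248 (SD, n = 3) in wild-type cells. Cyfip1, the paralog of Cyfip2, averaged 22.2 CPM ± 4.93 (SD, n = 2) in p53-null and 4.59 CPM ± 2.36 (SD, n = 3) in wild-type cells (log2 difference 2.24, SE 0.49, adjusted p = 0.0101). Cyfip2 averaged 2.92 CPM ± 0.466 (SD, n = 2) in p53-null and 2.25 CPM ± 0.366 (SD, n = 3) in wild-type cells (adjusted p = 0.46). In treated cells 0 of the 8 passed in limma-trend or limma-voom, and 2 had an unadjusted p under 0.05. Over all genes 12.1% passed there in limma-trend. Since the p53-null libraries were the deeper ones, depth and genotype cannot be told apart for these genes.

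**Figure D5:**
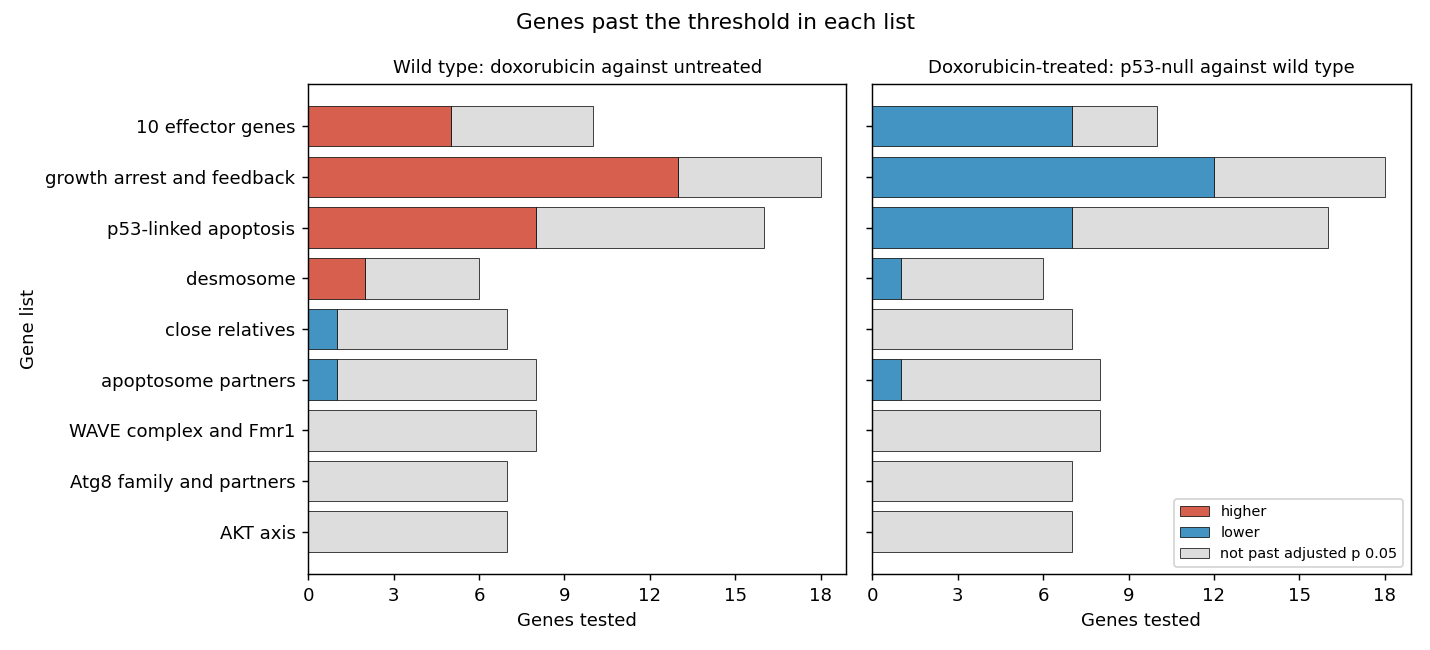
Number of tested genes past the threshold in each list, higher (red), lower (blue) or not past it (grey), for doxorubicin against untreated in wild-type cells (left) and for p53-null against wild type in treated cells (right). The 10 effectors have 5 higher on the left and 7 lower on the right, and the arrest and feedback genes have 13 and 12.

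Some genes followed the effectors closely over the 10 libraries. Likeness is given as the root mean square distance between log2 values centred per gene, as a description without a test. Fas lay nearest to Perp (0.204), at 0.0694 CPM in treated p53-null and 0.140 CPM in untreated p53-null cells, against 1.88 CPM in treated and 0.107 CPM in untreated wild-type cells. The peroxisomal oxidase gene Acox3 lay nearest to Trp53inp1 (0.210), and Dgka, which encodes a diacylglycerol kinase, nearest to Ei24 (0.257). Gp1bb lay nearest to Aen (0.188), B930041F14Rik to Phlda3 (0.254), Fosl1 to Zmat3 (0.244), Rab43 to Apaf1 (0.294) and Bcorl1 to Cyfip2 (0.169). Genes that share an outlying library come out alike by this measure, and low genes come out nearer because of the added 0.5 CPM.

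Reads of neighbours could enter some counts. In the GRCm38 annotation Zmat3 overlaps 4930429B21Rik, Ei24 overlaps Gm26787, Apaf1 overlaps Ikbip and Gm25390, and Cyfip2 overlaps Fndc9, Gm35624 and Gm12568. The strand used in counting is not given in the sources used here, so reads of these pairs may not have been separated.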

How the data were processed

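Each deposited RNA file gives 1 value per gene on a scale close to log2, made by the authors with DESeq (no version given) on build mm9, per the submitters' processing notes. Aligner, counting strand and annotation: not given in the sources used here. The deposited log2-like values lay on 1 curve in all libraries, and whole reads were recovered by walking along it: beyond the first 200 reads, 99.81% of 22622 values came within 0.01 of a whole number of reads, and the other 43 stood at 108926 reads or more. As these are computed values, no count model was the main test.

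A gene was tested if 2 or more libraries reached 1 CPM (11177 genes). Scaling used the TMM method with trims of 30% and 5%. In R 4.3.3, limma 3.58.1 with its trend option fitted log2(CPM + 0.5), with 1 mean per group over all 10 libraries. P-values are two-sided and adjusted by the Benjamini-Hochberg method over all genes tested, with a threshold of 0.05. The steps were tested on simulated data.

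All 10 effectors are named, as are up to 4 genes of each pathway list by smallest p, and the tested gene most like each effector that passed in at least 1 comparison. Casp9, Dsp and Phlda2 fall outside it and were picked with their values known. The effectors and lists were chosen with earlier results of these data known. To see whether replicate numbers pair the libraries, deviations from group means were correlated. In wild type all 3 pairs had correlations over 0.1, and the numbers were taken to pair the libraries. With 2 libraries a group in p53-null cells the correlation (0.385) mirrors that of the crossed pairing, treated library 2 went against untreated library 2 in its Y-linked reads, and no pairing was assumed. The fit with the block in wild type only and the fit on thinned p53-null reads were chosen after seeing the data. Alternatives were other scalings, filters, added constants, limma-voom, the values as deposited, only the libraries compared, the replicate block, and the omission of libraries. A list of p53 binding sites from 4 further samples is on mm9 and was not used here, because the gene table at hand is on GRCm38. Some genes that the rule takes are left out of the text.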

Additional observations from a re-analysis of the deposited data

Results flagged for a closer look

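3 of the 10 effectors responded differently to doxorubicin in the genotypes, by limma's test of the difference of responses, p53-null minus wild type, adjusted over all genes tested. The difference was -2.92 for Ei24, with log2 changes of -0.55 in p53-null and 2.37 in wild-type cells. For Trp53inp1 it was -2.57, with 0.22 in p53-null and 2.79 in wild-type cells. For Perp it was -2, with 0.14 in p53-null and 2.14 in wild-type cells. Perp and Trp53inp1 were under 1 CPM in every library outside treated wild type and entered the test through that group alone, which favours this direction.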

How the results depend on the processing

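The doxorubicin response in wild type counted 5 of the 10 genes. It counted 3 when only the libraries compared were fitted and 3 without both p53-null libraries numbered 2, and 3 to 5 when single libraries were left out. With the replicate block it counted 8 (2600 of all genes, against 1406), and 7 with the block in wild type only (2441). In p53-null cells the count was 0 under every alternative run, the block included. With no filter on low levels 2 other genes passed, and the fit without treated p53-null library 2 was not free of calls outside the 10 either. The difference of responses counted 3 genes. It counted 1 with 0.1 CPM added, 1 with limma-voom, 1 with the values as deposited, 0 without both libraries numbered 2 and 0 to 3 when single libraries were left out. With the replicate block it counted 6 (1060 of all genes, against 261), and 6 with the block in wild type only (868). Untreated p53-null against wild type counted 2 genes, 4 with the values as deposited, 4 with the replicate block (3 lower and 1, Phlda1, higher), 0 without both libraries numbered 2 and 0 to 4 when single libraries were left out. The block changed no other call of the treated genotypes, which counted 7 genes, 4 without both libraries numbered 2 and 5 to 7 when single libraries were left out. No called direction of an effector reversed. Among effectors not called, signs turned for Perp and Aen in p53-null cells (-0.08 to 0.50 and -0.14 to 0.46), Apaf1 in the difference of responses (-0.89 to 0.34), and Zmat3 and Ei24 between untreated genotypes (-0.32 to 0.24 and -0.09 to 0.81). The cause of these moves was not tested, beyond fewer libraries or genes in the fits that leave some out. Fits that leave out a p53-null library hold 1 library in a group. They called fewer of all genes too, in every comparison with calls in the main fit. Among calls between untreated genotypes 61.5% were higher in p53-null cells, against 86.6% with library size only and 73.3% with upper quartile scaling, and between treated genotypes 43.5%, against 68.6% with library size only. In the difference of responses 19.2% of calls were higher, against 4.73% with upper quartile scaling, 8.97% with library size only and 34.3% with the block. Counting limits Perp and Trp53inp1, with 1 to 8 reads in most libraries outside treated wild type.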

Other observations

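Some partners of the effectors differed between untreated genotypes, where 33.1% of all genes did. Each of the calls between untreated genotypes given here was lost without both p53-null libraries numbered 2, as were most calls over all genes. Of 8 tested apoptosome partners, Cycs, the gene of cytochrome c, was higher in p53-null cells, at 63.6 CPM ± 2.40 (SD, n = 2) in p53-null and 24.1 CPM ± 3.36 (SD, n = 3) in wild-type cells (adjusted p = 0.00475, limma), and Bag1, Hspa8 and Diablo were lower, with log2 differences of -1.04, -1.10 and -0.97. Of 7 genes around the Atg8 family, Tmem49 was higher by 1.26 and Map1lc3b fell by 1.51 on the log2 scale. In the AKT axis Akt2 fell by 1.14. Tmem47 was higher by 1.42 and Pmp22 fell by 1.80 among 7 close relatives, and the desmosome gene Pkp2 was higher by 1.08 among 6. Evpl, but not Bag1, entered the test through treated wild type alone. In treated cells, where 12.1% of all genes passed, Bag1 (-0.88) and Evpl (-1.25) were the only genes of these 5 lists that passed in limma-trend. Apart from the apoptosome gene Hspa8 (1.63, adjusted p = 0.0238), no gene of these lists had a response that differed between the genotypes by that test. Of all genes, 2.34% did.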
